A study of Mus musculus with 6 samples.

Results

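Limb buds are among the structures growing out of the flank of the mouse embryo at E10.5 (E, embryonic day), and 10 genes that set limb type or drive outgrowth (*Tbx4*, *Tbx5*, *Pitx1*, *Fgf10*, *Grem1*, *Lmx1b*, *Tbx2*, *Tbx3*, *Msx1* and *Msx2*) were examined here in whole-embryo RNA-seq. They were taken by symbol from the 55401 genes of the count table, and all 10 were among the 16784 genes with enough counts to be tested. WT embryos carried an unmodified *Igf2* locus. Their 5C littermates carried 5 extra tandem copies of *Mir483*, a microRNA gene hosted by *Igf2*, inserted at that locus through targeted ES cells. There were 3 libraries of each genotype. Each was made from 2 male embryos pooled, so the spread between libraries is a spread between pools of whole embryos. Sex and pooling are taken from the study's methods. The 10 genes were selected on their counts in these same WT and 5C libraries, so their differences between WT and 5C are given as a description, without a test.

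Limb type is set in the lateral plate mesoderm. *Tbx5* marks the forelimb field, whereas *Pitx1* and *Tbx4* mark the hindlimb field, and both fields switch on *Fgf10*, the mesenchymal signal that induces and maintains the apical ectodermal ridge. Outgrowth then depends on a feedback loop in which the BMP antagonist *Grem1* links posterior hedgehog signalling to ridge FGFs, while *Lmx1b* specifies dorsal fate, *Tbx2* and *Tbx3* are expressed along the anterior and posterior margins, and *Msx1* and *Msx2* respond to BMPs. None of these genes belongs to the limb alone. *Tbx5*, *Tbx2* and *Tbx3* are expressed in the heart, *Tbx4* in the allantois and lung bud, and *Pitx1* in the pituitary and first pharyngeal arch. In a whole-embryo lysate, fewer cells of a type and less RNA per cell cannot be told apart.

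*Mir483* yields 2 mature microRNAs, and their sequences are shown because the 7 bases of each seed (bases 2 to 8, in capitals) define the sites searched in the limb genes. The sequences are from RefSeq, GRCm38.p6, minus strand, chr7:142654932-142654952 for the first and chr7:142654968-142654989 for the second.
mmu-miR-483-3p: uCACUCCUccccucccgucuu
mmu-miR-483-5p: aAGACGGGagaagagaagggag
The letters opposite the miR-483-3p seed, AGGAGTG, were searched on the transcript strand of the 3′ UTR of each gene's longest coding transcript, and occurred in 2 of the 10 limb genes, *Tbx3* and *Lmx1b*. The same letters occurred in 10.9% of 21108 genes with a 3′ UTR. Those opposite the miR-483-5p seed, CCCGTCT, occurred in 0 of the 10 and in 2.80% of all. The 2 matches are shown, from the GENCODE M21 transcripts (GRCm38), with 8 bases on each side and the match in capitals. They began at base 259 of the 1469-base 3′ UTR of *Tbx3* and at base 2844 of the 3671-base 3′ UTR of *Lmx1b*, and the *Lmx1b* match was followed by an A, as in an 8mer site. A match is a description of the letters and not evidence of binding.
Tbx3: ggggcgggAGGAGTGgtggcaaa
Lmx1b: tgtcacacAGGAGTGacaagaac

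Depth ranged from 6357343 counts in WT replicate 3 to 19151368 in WT replicate 1, and levels are given as counts scaled to the library total (CPM), with totals adjusted by the trimmed mean of M values (TMM). The lowest level that 3 counts allow ranged from 0.157 to 0.472 CPM, below every value of the 10 genes, and such floors cover counting error only. *Mir483* itself had 11, 5 and 2 counts in WT and 85, 51 and 36 in 5C, in the direction of the labels. Over all 16784 genes, 0 (0%) passed the threshold for a differentially expressed gene (DEG; adjusted p under 0.05 and fold change over 1.5, edgeR quasi-likelihood test), and 1011 (6.02%) had an unadjusted p under 0.05, 3.47% lower and 2.55% higher in 5C. WT replicate 3 stood apart from the other 5 libraries. It held 16 genes with at least 50 counts and a level at least 10 times that of every other library, whereas none of the other libraries held any. *Tbx4* was 1 of these 16 genes, and each *Tbx4* value below is given with and without this library. WT replicate 2 stood apart in a different way, as the lowest library for many limb genes, described further on.

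*Tbx4*, the T-box factor of the hindlimb, allantois and lung bud (ENSMUSG00000000094, GRCm38 chr11:85886422-85916097, plus strand), was present at a similar level in 5 libraries and far higher in 1. It had 140, 72 and 2498 counts in WT replicates 1 to 3, against 155, 103 and 77 counts in 5C. As levels these were 7.35, 6.18 and 399 CPM in WT, against 9.39, 8.79 and 5.48 CPM in 5C. WT replicate 3 alone was high, at 42.4 times the highest other library and 54.3 times the median of the other 5, and the other WT libraries lay inside the range of the 5C libraries. *Tbx4* was the gene of rank 286 by counts in WT replicate 3 and between rank 10428 and rank 11750 elsewhere. It took 0.0393% of that library's counts, against 0.000543% to 0.000951% in the others.

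The genotype difference of *Tbx4* therefore rested on that library. Its mean was 137 ± 226 CPM in WT, against 7.89 ± 2.11 CPM in 5C (SD, n = 3 each), and the log2 fold change of 5C against WT was -4.06 with a standard error (SE) of 1.41. Without WT replicate 3 the log2 fold change was 0.21 (SE 0.25), with the 2 remaining WT libraries at a mean of 6.76 CPM. The sign turned and the difference was smaller than its SE. *Tbx4*, like every gene tested, did not pass the threshold for a DEG, which is no test of a gene selected on these counts.

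**Figure D1:**
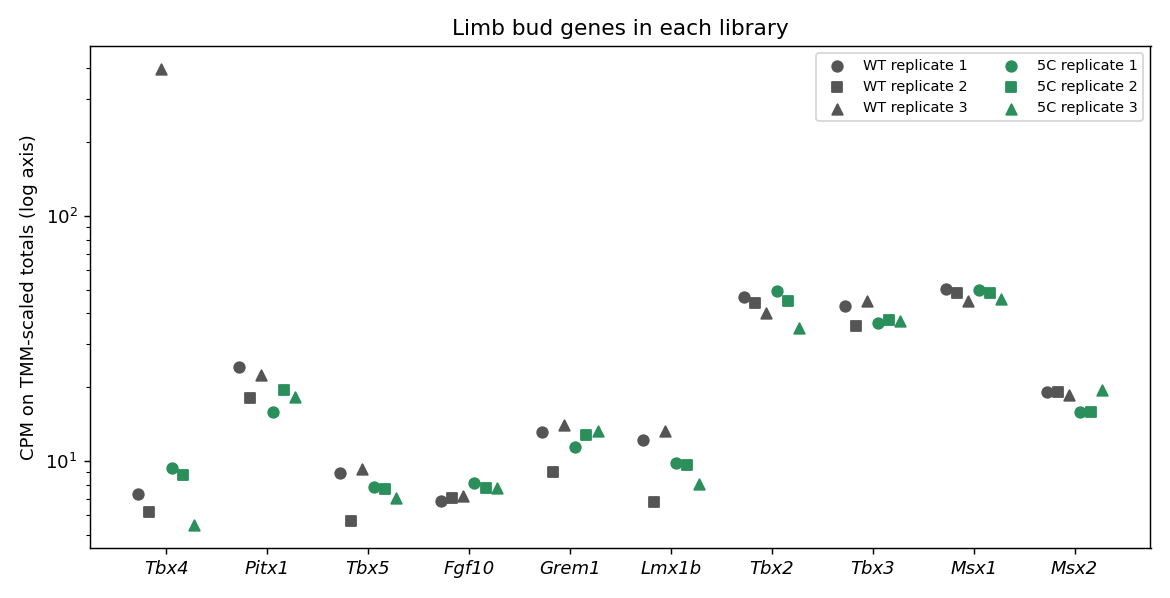
CPM on TMM-scaled totals (log axis) of the 10 limb bud genes in each library, with WT in grey, 5C in green and a marker shape for each replicate number. *Tbx4* in WT replicate 3 (399 CPM) lies above every other point, and all other values of the 10 genes lie between 5.48 and 50.3 CPM.

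The other 9 genes did not stand out in WT replicate 3 as *Tbx4* did, though *Tbx5*, *Grem1*, *Lmx1b* and *Tbx3* were each highest there. WT replicate 3 was thus the highest library for 5 of the 10 genes, against 18.7% of all genes tested, and the median log2 level of the 9 genes was 0.20 above their mean over the 6 libraries, the highest of any library. Their levels there were between 0.81 and 1.09 times the highest of the other 5 libraries, and their sum was 214 CPM, within the range of 192 to 224 CPM of the others. *Tbx4* made up 65.0% of the counts of the 10 genes in WT replicate 3, against 2.78% to 4.39% elsewhere. *Pitx1*, which acts upstream of *Tbx4* in the hindlimb, was at 22.5 CPM in that library, below the 24.1 CPM of WT replicate 1. *Tbx2*, the neighbour of *Tbx4* on chromosome 11, was at 40.0 CPM, below 4 of the other 5 libraries. Of 16 T-box genes examined, *Tbx4* was the only one that met the limit of at least 50 counts and 10 times every other library in any library. Several could not meet it in WT replicate 3, such as *T* with 41 counts there and *Tbx1* with 40.

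Sites of *Tbx4* expression outside the limb were examined through other genes. The summed level of 5 allantois and umbilical vessel genes (*Hand1*, *Vcam1*, *Wnt2*, *Hoxa13* and *Cdx2*) was 69.7 CPM in WT replicate 3, close to the 65.8 CPM of WT replicate 1, and 53.1 to 64.9 CPM in the other 4. *Hand1*, which marks allantois and other extraembryonic mesoderm, was at 6.38 CPM in WT replicate 3, below the 7.61 CPM of WT replicate 1. *Wnt2* was highest in WT replicate 3, at 17.4 CPM against 9.39 to 13.3 CPM elsewhere, and so was *Hoxa13*, at 4.15 CPM against 1.20 to 2.82 CPM. *Vcam1* made up most of the sum, with 40.7 CPM in WT replicate 3 and 33.7 to 43.9 CPM elsewhere. The summed level of 8 genes of the pituitary, pharynx and lung bud was 58.6 CPM in WT replicate 3, the lowest of the 6 libraries, which reached 65.2 CPM. The part of these tissues in the *Tbx4* value was not tested.

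The 15 other genes that stood out in WT replicate 3 did so at 11.6 to 344 times the highest other library. The most abundant was an identifier without an entry in the annotation used (ENSMUSG00000118642), with 65808 counts there, 1.04% of the library, and 67 to 503 counts elsewhere. *Nrxn2*, a presynaptic adhesion gene, was at 1188 CPM against 6.69 to 20.2 CPM, and *Pou3f1*, a POU-domain factor, was at 242 CPM against 5.67 to 11.7 CPM. The named genes of the 16 lay on 10 chromosomes, and together the 16 took 1.28% of the library. The mitochondrial ribosomal RNA genes took 0.631% of the counts of WT replicate 3, against 0.0842% to 0.245% elsewhere. Whether these values and the *Tbx4* value share a source was not tested.

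**Figure D2:**
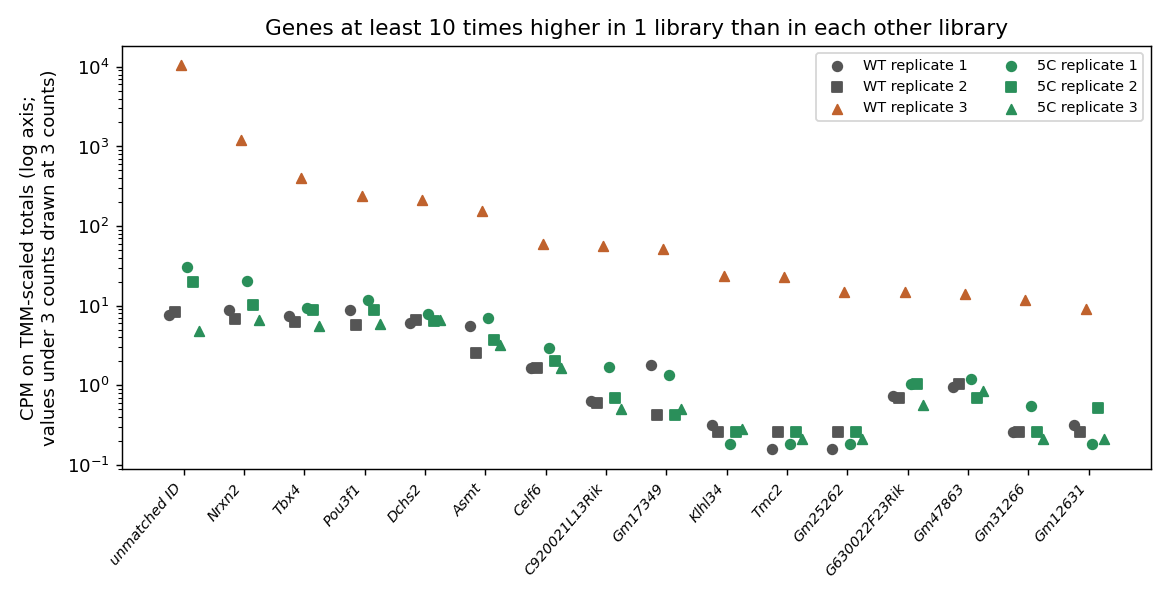
CPM on TMM-scaled totals (log axis, values under 3 counts drawn at the level of 3 counts) of the 16 genes at least 10 times higher in 1 library than in every other, with WT replicate 3 in orange, the other WT libraries in grey and 5C in green. In each gene the orange point lies alone at the top, from 10499 CPM for the unmatched identifier to 9.09 CPM for *Gm12631*.

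The same genes were most like *Tbx4* across libraries. Likeness was the root mean square distance between log2 CPM profiles over the 6 libraries, each centred on its mean, among all genes tested. The nearest genes were *Pou3f1* (distance 0.341), *Celf6* (0.366), *Dchs2* (0.380), *Asmt* (0.393) and *Nrxn2* (0.544), all 5 of them among the 16 genes high in WT replicate 3. The other 9 limb genes were far from *Tbx4*, between rank 660 (*Lmx1b*) and rank 11455 (*Msx1*). Both outcomes were largely fixed beforehand. The *Tbx4* profile (SD 2.36) was set mainly by its height in WT replicate 3, on which the 16 genes were picked. The other 9 limb genes varied little (SD 0.068 to 0.354). The likeness is therefore no further sign that these genes belong together. Without WT replicate 3 the nearest genes became *Gabrb2* (0.0464), *6330415B21Rik* (0.0488), *Gm42996* (0.0567), *G630022F23Rik* (0.0605) and *9030622O22Rik* (0.0625), sharing 0 of 5 with the first set. One of these, *G630022F23Rik*, was itself among the 16.

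Hindlimb and forelimb genes were next compared within each library, since a ratio of 2 genes does not depend on scaling. The ratio of *Tbx4* to *Tbx5* counts was 0.824 (95% Clopper-Pearson interval 0.654 to 1.04) in WT replicate 1, 1.09 (0.770 to 1.55) in WT replicate 2 and 43.1 (33.2 to 56.9) in WT replicate 3. It was 1.20 (0.945 to 1.53), 1.14 (0.854 to 1.54) and 0.778 (0.570 to 1.06) in 5C replicates 1 to 3. In 5 of the 6 libraries the interval held 1, so hindlimb *Tbx4* and forelimb *Tbx5* were counted about equally there. Per kilobase of exon the ratio was 1.07 to 1.65 in those 5 libraries. These intervals cover counting error only. The mean log2 ratio was 1.76 ± 3.19 in WT and 0.03 ± 0.34 in 5C (SD, n = 3 each), a difference of -1.73 that became 0.11 without WT replicate 3.

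The ratio of *Pitx1* to *Tbx5* counts was steadier. It was 2.70 (2.26 to 3.24), 3.20 (2.41 to 4.28) and 2.43 (1.78 to 3.36) in WT, and 2.03 (1.64 to 2.53), 2.52 (1.97 to 3.26) and 2.60 (2.05 to 3.31) in 5C. The genotypes overlapped. WT replicate 3 lay below both other WT libraries, but its interval held their ratios, and *Tbx5* was at its highest there (9.25 CPM). By its own level, 22.5 CPM against 24.1 CPM in WT replicate 1, the hindlimb gene *Pitx1* did not share the height of *Tbx4* in WT replicate 3. The mean log2 ratio was 1.46 ± 0.20 in WT and 1.24 ± 0.19 in 5C (SD, n = 3 each), a difference of -0.22, or -0.31 without WT replicate 3. Within the hindlimb pair, *Tbx4* to *Pitx1* was 17.7 in WT replicate 3 and reached at most 0.592 in the other libraries.

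**Figure D3:**
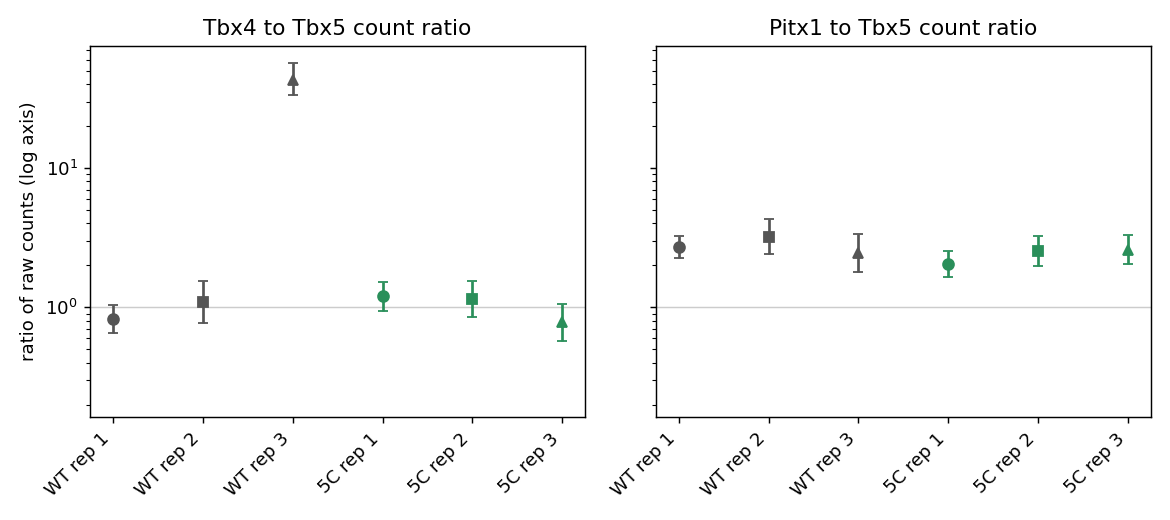
Ratio of raw counts within each library (log axis) for *Tbx4* to *Tbx5* (left) and *Pitx1* to *Tbx5* (right), with 95% Clopper-Pearson intervals as bars and a line at 1. *Tbx4* to *Tbx5* is 43.1 in WT replicate 3 and 0.778 to 1.20 elsewhere, whereas *Pitx1* to *Tbx5* lies between 2.03 and 3.20 in all 6 libraries.

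*Pitx1*, the homeodomain factor of hindlimb identity (ENSMUSG00000021506, chr13:55825051-55836192, minus strand), had the lowest log2 fold change of the other 9 genes. It was at 24.1, 18.1 and 22.5 CPM in WT, against 15.9, 19.4 and 18.3 CPM in 5C. WT replicates 1 and 3 lay above every 5C library, and WT replicate 2 lay within the 5C range. The log2 fold change was -0.28 (SE 0.13), and -0.26 (SE 0.16) without WT replicate 3. A small part of its exons (4.07% on the same strand and 6.21% on the other) lies under exons of other genes.

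*Tbx5*, the forelimb and cardiac T-box factor (ENSMUSG00000018263, chr5:119832668-119885219, plus strand), was at 8.92, 5.67 and 9.25 CPM in WT, against 7.82, 7.68 and 7.05 CPM in 5C. The 5C libraries lay between the low WT replicate 2 and the other WT libraries. The log2 fold change was -0.07 (SE 0.20), turning to 0.02 (SE 0.21) without WT replicate 3. *Tbx5* counts come from the heart as well as the forelimb, so 10 heart muscle genes were examined beside it. Their summed level was 623 to 828 CPM in WT and 544 to 616 CPM in 5C. All 10 had a log2 fold change below 0 (median -0.17), beside 50.7% of all genes tested, but 0 of 10 were DEGs and genotypes did not overlap for 3, beside 11.4% of all genes tested. *Myh6*, an atrial myosin heavy chain, was at 61.1, 86.5 and 72.3 CPM in WT, against 48.9, 39.2 and 33.1 CPM in 5C, yet did not pass the DEG threshold (log2 fold change -0.85, adjusted p = 0.781, edgeR). WT replicate 2 was the highest library for the heart genes and the lowest for *Tbx5*. The part of the heart in the *Tbx5* values was not tested.

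Of the genes of outgrowth, *Fgf10* (ENSMUSG00000021732, chr13:118669791-118792115, plus strand) was the only one of the 10 whose genotypes did not overlap. It was at 6.87, 7.04 and 7.18 CPM in WT, against 8.12, 7.77 and 7.76 CPM in 5C, so that every 5C library lay above every WT library. The log2 fold change was 0.17 (SE 0.13), from 45 to 134 counts per library, and fitted offsets for GC content brought it to 0.10. Over all genes tested, 11.4% had genotypes that did not overlap, 6.26% with 5C above WT and 5.1% with 5C below.

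*Grem1*, the secreted BMP antagonist (ENSMUSG00000074934, chr2:113746164-113758646, minus strand), was at 13.1, 9.02 and 14.0 CPM in WT, against 11.4, 12.8 and 13.2 CPM in 5C. WT replicate 2 was its lowest library, and the log2 fold change was 0.06 (SE 0.17), or 0.15 (SE 0.18) without WT replicate 3. *Lmx1b*, the LIM-homeodomain factor of the dorsal mesenchyme (ENSMUSG00000038765, chr2:33560965-33640511, minus strand), was at 12.2, 6.78 and 13.2 CPM in WT, against 9.82, 9.65 and 8.04 CPM in 5C. The WT libraries lay on both sides of all 5C libraries. Its log2 fold change was -0.22 (SE 0.23), and -0.07 (SE 0.24) without WT replicate 3, in which it was highest. *Lmx1b* carries 1 of the AGGAGTG matches shown above.

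The T-box repressors *Tbx2* and *Tbx3*, which lie beside *Tbx4* and *Tbx5* on their chromosomes, had overlapping genotypes. *Tbx2* (ENSMUSG00000000093, chr11:85832551-85841948, plus strand) was at 46.5, 44.2 and 40.0 CPM in WT, against 49.4, 44.8 and 35.0 CPM in 5C, with 5C both the highest and the lowest. *Tbx3* (ENSMUSG00000018604, chr5:119670669-119684724, plus strand), the other gene with an AGGAGTG match, was at 42.9, 35.5 and 44.8 CPM in WT, against 36.4, 37.6 and 37.2 CPM in 5C. Its 5C libraries were close together (37.0 ± 0.581 CPM, SD, n = 3), between WT replicate 2 and the other WT libraries (41.1 ± 4.95 CPM, SD, n = 3). The log2 fold changes were -0.02 (SE 0.13) for *Tbx2* and -0.15 (SE 0.10) for *Tbx3*, and -0.08 and -0.09 without WT replicate 3. The ratio of *Tbx3* to *Tbx2* counts ran from 0.737 to 1.12 over the 6 libraries.

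The BMP-responsive homeobox genes differed little. *Msx1* (ENSMUSG00000048450, chr5:37820485-37824583, minus strand), the most highly counted of the 10 outside WT replicate 3, was at 50.3, 48.5 and 44.8 CPM in WT, against 49.9, 48.6 and 45.6 CPM in 5C, nearly the same set of values. Its log2 fold change was 0.00 (SE 0.08). *Msx2* (ENSMUSG00000021469, chr13:53466884-53473074, minus strand) had 363, 223 and 116 counts in WT and 261, 185 and 274 counts in 5C, which scaled to 18.5 to 19.1 CPM in WT and to 15.8, 15.8 and 19.5 CPM in 5C. A pair of low 5C libraries and 1 high one gave a log2 fold change of -0.15 (SE 0.12), and *Msx2* to *Msx1* ran from 0.317 to 0.427.

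Across the 10 genes, 0 passed the DEG threshold, beside 0% of all genes tested, so this count describes no trait of the limb genes. The log2 fold change was below 0 in 7 and above 0 in 3, beside 50.7% below 0 over all genes, and the median was -0.11. Without *Tbx4* 6 were below and 3 above 0, the median was -0.07 and the range was -0.28 to 0.17, with SEs of 0.08 to 0.23.

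**Figure D4:**
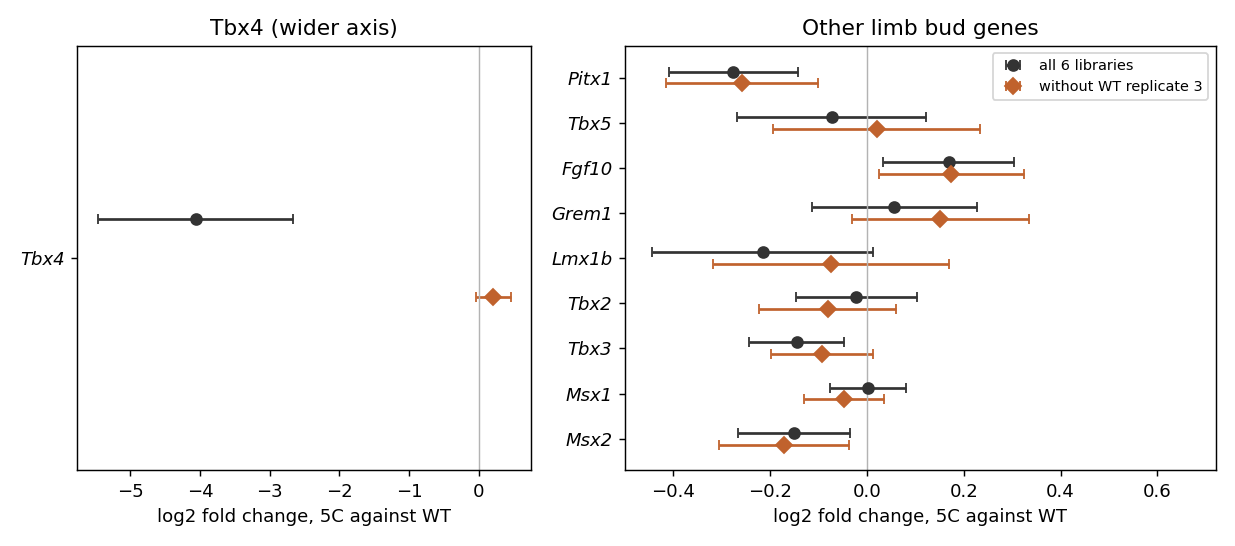
Log2 fold change of 5C against WT with 1 SE on each side, from all 6 libraries (black circles) and without WT replicate 3 (orange diamonds), for *Tbx4* on a wide axis (left) and the other 9 genes on a narrow axis (right). *Tbx4* moves from -4.06 to 0.21 when the library is left out, whereas *Pitx1* moves from -0.28 to -0.26 and *Fgf10* stays at 0.17.

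Levels were compared between genes as CPM per kilobase of exon, with the median and range over the 6 libraries. *Msx1* was highest at 15.7 (14.5 to 16.2), followed by *Tbx2* at 12.3 (9.64 to 13.6) and *Pitx1* at 7.09 (5.98 to 9.07), and these 3 ranges did not overlap. *Msx2* at 5.73 (4.82 to 5.95) and *Tbx3* at 5.64 (5.35 to 6.77) did not differ beyond their spread. *Grem1* at 3.12 (2.17 to 3.38), *Tbx4* at 2.16 (1.61 to 2.76, without WT replicate 3), *Lmx1b* at 1.99 (1.39 to 2.71), *Tbx5* at 1.66 (1.21 to 1.98) and *Fgf10* at 1.62 (1.49 to 1.76) each overlapped the next in order. With WT replicate 3 the *Tbx4* median was 2.37 and its highest value 117, above every value of *Msx1*.

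Limb genes were low in WT replicate 2. It was the lowest library for 4 of the 10 genes (*Tbx5*, *Grem1*, *Lmx1b* and *Tbx3*) and for 42 of 81 other limb genes (51.9%), against 15.9% of all genes tested. Among posterior limb bud and hedgehog genes it was lowest for 13 of 19, with a median log2 level 0.33 below the mean of the 6 libraries, the values being -0.33 for that list, -0.23 for mesenchyme and FGF response, -0.20 for limb field and limb type and -0.11 for the 9 genes other than *Tbx4*. For apical ridge genes it was lowest for 4 of 15 and the median was -0.04. For BMP signalling genes it was lowest for 6 of 14 and the median was -0.08. The range of WT values for *Tbx5*, *Grem1*, *Lmx1b* and *Tbx3* was therefore set at its lower end by a library in which many limb genes were low. Without WT replicate 2 their log2 fold changes were -0.27, -0.12, -0.46 and -0.24, against -0.07, 0.06, -0.22 and -0.15 from all 6 libraries. *Pitx1* was then at -0.39, and *Fgf10*, *Tbx2*, *Msx1* and *Msx2* were at 0.17, -0.01, 0.01 and -0.14. Why WT replicate 2 was low for many limb genes was not tested.

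The 81 other limb genes, in 5 lists by role, were all tested, and 0 passed the DEG threshold (edgeR, and 0 with DESeq2 and limma-voom). An unadjusted p under 0.05 was found for 4 of the 81 (4.94%, beside 6.02% of all genes tested), all 4 higher in 5C. The log2 fold change was below 0 in 40 and above 0 in 41, with a median of 0.01 and a range of -0.38 to 0.42. Genotypes did not overlap for 9 (11.1%, beside 11.4% of all genes).

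All 4 genes belonged to the 19 genes of limb mesenchyme and FGF response. *Lhx9*, a LIM-homeodomain gene that acts with *Lhx2* and *Lmx1b* in limb mesenchyme, was at 31.5, 22.1 and 31.9 CPM in WT, against 34.7, 39.6 and 37.1 CPM in 5C (log2 fold change 0.38, SE 0.14, adjusted p = 0.781, edgeR). *Dusp6*, an FGF-induced phosphatase, had a log2 fold change of 0.20, and *Lhx2* one of 0.27. *Twist1*, a mesenchymal bHLH factor named after its values were seen, had 0.21. The adjusted p was 0.781 for each in edgeR. Without WT replicate 3, the unadjusted p was 0.0201 for *Lhx9*, 0.0177 for *Twist1*, 0.0339 for *Dusp6* and 0.0865 for *Lhx2* (edgeR). WT replicate 2, in which many limb genes were low, was however the lowest library for all 4. With single libraries left out, the log2 fold change ran from 0.23 to 0.48 for *Lhx9*. It ran from 0.20 to 0.38 for *Lhx2* and from 0.13 to 0.23 for *Dusp6*. The list as a whole had 10 genes below 0 and 9 above, with a median of -0.01. *Lhx9*, *Lhx2*, *Twist1* and *Dusp6*, like *Fgf10*, were each higher in every 5C library than in any WT library, beside 6.26% of all genes tested. These 4 genes were picked by a small unadjusted p, which favours genes whose genotypes do not overlap.

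In the other lists 0 genes had an unadjusted p under 0.05 in edgeR. Of 14 genes of limb field and limb type 11 were below 0 (median -0.04), with *Isl1*, which acts upstream of *Fgf10* in the hindlimb field, at 0.14. Of 15 ridge and limb ectoderm genes 7 were below 0 (median 0.02), with *Dlx6* at 0.30 and *Fgf17*, a ridge FGF, at -0.34. Of 19 posterior and hedgehog genes 7 were below 0 (median 0.08), with *Hhip*, a hedgehog-binding inhibitor, at -0.25 and *Hoxd10* at 0.40. Of 14 BMP signalling genes 5 were below 0 (median 0.10), with the ligand gene *Bmp5* at 0.22. The summed BMP list was 1308 to 1324 CPM in WT and 1361 to 1392 CPM in 5C, ranges that did not overlap, although genotypes overlapped for each of the 14 genes (0 of 14 not overlapping, beside 11.4% of all genes tested). The share of 11.4% is of single genes, and no such share was taken for sums. The sum of the heart muscle genes did not overlap either, at 623 to 828 CPM in WT and 544 to 616 CPM in 5C. The BMP-responsive *Msx1* and *Msx2* were at 0.00 and -0.15.

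**Figure D5:**
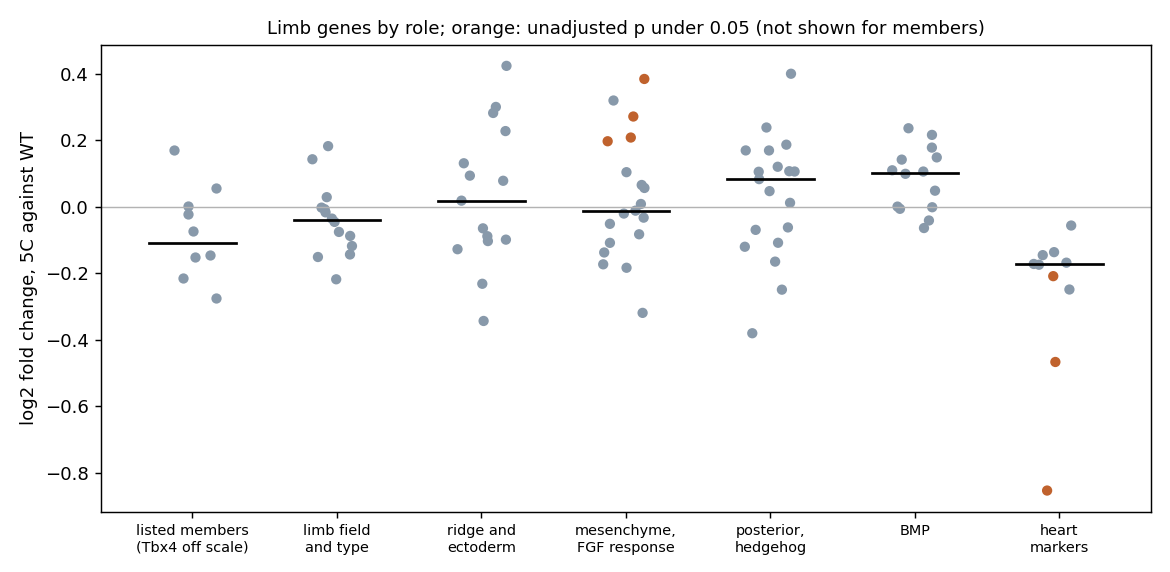
Log2 fold change of 5C against WT for each gene (points) and the median (line) of the 10 limb bud genes, 5 lists of other limb genes and the heart muscle genes, with an unadjusted p under 0.05 in orange (not marked for the 10 genes). *Tbx4* (-4.06) is off the scale but counts in the median of -0.11, the orange points among limb genes are the 4 of the mesenchyme list, and all 10 heart muscle genes lie below 0.

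Markers of other tissues showed how the lysates varied. The summed level of 12 yolk sac endoderm genes was 6884 CPM in WT replicate 1 and 1381 CPM in 5C replicate 3, against 201 to 576 CPM in the other 4 libraries, and that of 13 trophoblast genes was 14.6 to 35.3 CPM. The 10 decidua genes summed to 86.8 CPM in WT replicate 3 and 87.0 CPM in 5C replicate 3, against 36.5 to 73.7 CPM in the rest. These close sums were made up in different proportions. *Gzmd* and *Gzmg* were at 1.44 and 0.957 CPM in WT replicate 3, against 7.19 and 6.12 CPM in 5C replicate 3. *Des* was at 31.4 CPM in WT replicate 3 and 28.6 CPM in 5C replicate 3. *Prl8a2*, the largest part of the sum in WT replicate 3, went the other way from the granzymes. It was at 43.4 CPM in WT replicate 3 and 28.3 CPM in 5C replicate 3, against 5.07 to 31.8 CPM in the rest. The 10 neural tube genes ran from 960 to 1116 CPM and the 10 primitive erythroid genes from 8396 to 16332 CPM, each with overlapping genotypes. The yolk sac sum was 576 CPM in WT replicate 3 and 289 CPM in WT replicate 2, against 219 and 201 CPM in 5C replicates 1 and 2. The part of these tissues in the limb gene values was not tested. With WT replicate 1 and 5C replicate 3 left out together, the median log2 fold change of the 9 genes other than *Tbx4* was 0.07, and that of *Tbx4* was -4.44.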

How the data were processed

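RNA was taken from lysates of whole E10.5 male embryos, and poly(A) libraries were made with a stranded kit. The authors aligned reads with STAR to GRCm38, and the deposited values are raw counts of reads for each Ensembl gene, without normalization. Symbols, positions and 3′ UTRs came from GENCODE M21 (GRCm38), in which 55141 of 55401 identifiers were found. Genotype and replicate number came from the sample titles.

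Counts were analysed in R 4.3.3 with edgeR 4.0.16: filterByExpr, TMM scaling and the legacy form of the quasi-likelihood F-test, two-sided, with Benjamini-Hochberg adjustment over 16784 genes. P-values measure the spread between pools. The biological coefficient of variation was 13.6%. The fit was tested on simulated counts before use. CPM used the TMM-scaled totals of the genes tested, and log2 profiles a prior count of 2. Alternatives were other scalings, filters, DESeq2 1.42.0, limma-voom 3.58.1, robust moderation, GC offsets, the replicate number as a block, and leaving libraries out.

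The 10 genes, the 5 lists of other limb genes, the marker lists and the named-gene rule were chosen with earlier results of these data known. Named genes were the 10, the genes nearest to *Tbx4* and, from each list, some of the 3 with the smallest unadjusted p. The other genes high in WT replicate 3, *Vcam1*, *Hoxa13*, *Prl8a2* and *Twist1* were named after values were seen. The wider T-box family was also chosen then. Leaving WT replicate 3 out of the likeness to *Tbx4* and of the counts over each list was added after seeing the data.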

Additional observations from a re-analysis of the deposited data

How the results depend on the processing

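Depth limits *Tbx4*, *Tbx5* and *Fgf10* most, with 45 to 170 counts in each library apart from *Tbx4* in WT replicate 3. The number of DEGs over all genes was 0 in the analysis reported, 319 with no count filter, 11 with DESeq2, 3 with robust moderation, 2 without WT replicate 1 and 5C replicate 3 together, and 0 to 1 with single libraries left out (1 without 5C replicate 2 and 1 without 5C replicate 3). With no count filter 1 of the 10 genes, *Tbx4*, passed the DEG threshold in edgeR, which is no test of a gene selected on these counts and rests on WT replicate 3 (log2 fold change 0.21 without it). DESeq2 gave *Tbx4* a log2 fold change of -4.13 but returned no p-value for it, so it did not test this gene. Other limb genes with an unadjusted p under 0.05 numbered 4, against 8 with no count filter and 0 (without 5C replicate 2) to 8 (without WT replicate 2) with single libraries left out, 7 without 5C replicate 1. None of them was a DEG under any alternative run. The *Tbx4* log2 fold change was -1.12 in limma-voom and ran from -4.65 to 0.21 with single libraries left out. Same-numbered libraries did not deviate together (correlations -0.17, 0.20 and -0.17), so the numbers were not taken to pair them. With a replicate block the *Tbx4* log2 fold change was -1.80, 0 genes were called and 3 other limb genes had an unadjusted p under 0.05. The log2 *Tbx4* to *Tbx5* difference ran from -2.74 to 0.11 with single libraries left out and was -3.13 from summed counts. That of *Pitx1* to *Tbx5* ran from -0.31 to -0.11. The median of the 9 genes other than *Tbx4* ran from -0.14 to 0.03. *Pitx1*, *Fgf10*, *Tbx3* and *Msx2* kept their sign in all 17 alternatives, *Tbx4*, *Grem1* and *Lmx1b* in 16, *Tbx5* in 14, *Tbx2* in 12 and *Msx1* in 10. The causes of these differences were not tested.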

Other observations

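Outside WT replicate 3, *Tbx4* and the most abundant of the genes that stood out there were not at one level. *Tbx4* was at 9.39, 8.79 and 5.48 CPM in 5C replicates 1 to 3. *Nrxn2* was at 20.2 and 6.69 CPM in 5C replicates 1 and 3, *Pou3f1* at 11.7 and 5.84 CPM, and the identifier without an annotation entry at 30.5 and 4.77 CPM. *Dchs2* differed less, at 7.76 and 6.62 CPM. Leaving WT replicate 3 aside, 11 of the 16 genes (68.8%) were highest in 5C replicate 1, beside 17.2% of all genes tested. Some of the 11 rest on few counts, such as *Gm31266* with 9 in 5C replicate 1 and 0 to 5 elsewhere. *G630022F23Rik* was nearly level, at 1.03 CPM in 5C replicate 1 and 1.02 CPM in 5C replicate 2. The 16 genes and the libraries compared here were picked after their values were seen, and what the genes have in common was not tested.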
